A study of Mus musculus with 6 samples.

Results

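Rab GTPases and SNARE proteins move and fuse the membrane vesicles of a cell, and their mRNAs were measured here in mouse neutrophils cultured with prostaglandin E2 (PGE2) or without it. The genes were chosen by name from the protein-coding rows of the deposited count table. They were the numbered Rab, Vamp, Stx (syntaxin), Snap and Stxbp (syntaxin-binding protein) genes and Unc13d, which came to 94 of 45777 rows. Of these, 59 were Rab genes, 7 Vamp, 15 Stx, 5 Snap and 7 Stxbp genes. One of the 94, Snap91, matches by symbol and encodes a clathrin assembly protein, not a SNARE. Wild-type C57BL/6 mice gave the neutrophils, isolated from marrow on a Percoll density gradient. The cells were kept for 24 h with 10 µM PGE2, a lipid mediator that raises cyclic AMP through the receptors EP2 and EP4, or with its solvent DMSO (vehicle). There were 3 libraries per group, named as biological replicates in the series design. The labels do not state from how many animals the cells came, nor the age or sex of the animals.

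A Rab protein is a small GTPase that, when loaded with GTP, marks one membrane compartment and recruits the tethers and motors that bring a vesicle there. Fusion itself is carried out by SNAREs: a VAMP on the vesicle zips together with a syntaxin and a SNAP protein on the target membrane, under the control of Munc18 proteins (encoded by Stxbp genes) and Munc13 proteins. Neutrophils use this machinery to release preformed granules. RAB27A and its effector Munc13-4 (encoded by Unc13d) dock granules, and inherited loss of Munc13-4, syntaxin 11 or Munc18-2 causes failure of granule release in killer lymphocytes.

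The stretch before the transcription start was read for members that rose or fell. The 4 genes shown kept their call in each of the 14 alternative analyses described below, and at most 9 bases of any stretch shown lie in an annotated exon (GENCODE M21). The sequences are from RefSeq (GRCm38.p6), run 5′ to 3′ on the strand of the gene, and end at the base before the start. Capitals mark the short core of the cyclic AMP response element (TGACG, or CGTCA on the other strand) and the E-box CACGTG, a motif found in many lysosomal gene promoters. Vamp4 and Rab8b rose with PGE2. Their stretches lie at chr1:162570265-162570514 (plus strand) and chr9:66919706-66919955 (minus strand). A second annotated start of Vamp4, whose stretch holds 203 exon bases and none of the motifs searched, is not shown.
Vamp4: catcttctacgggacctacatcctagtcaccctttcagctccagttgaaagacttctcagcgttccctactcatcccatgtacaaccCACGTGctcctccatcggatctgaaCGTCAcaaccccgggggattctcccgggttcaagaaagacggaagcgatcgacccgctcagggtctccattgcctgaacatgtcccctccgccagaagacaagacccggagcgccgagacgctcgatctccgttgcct
Rab8b: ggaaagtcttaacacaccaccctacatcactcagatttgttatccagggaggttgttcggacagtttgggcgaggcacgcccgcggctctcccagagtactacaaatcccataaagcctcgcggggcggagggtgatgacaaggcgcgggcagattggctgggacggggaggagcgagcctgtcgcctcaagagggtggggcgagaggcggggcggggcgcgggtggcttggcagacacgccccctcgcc
Rab3d and Rab27a fell with PGE2. The stretch of Rab3d lies at chr9:21918184-21918433 (minus strand), and the 2 annotated starts of Rab27a have stretches at chr9:73044560-73044809 and chr9:73063898-73064147 (plus strand).
Rab3d: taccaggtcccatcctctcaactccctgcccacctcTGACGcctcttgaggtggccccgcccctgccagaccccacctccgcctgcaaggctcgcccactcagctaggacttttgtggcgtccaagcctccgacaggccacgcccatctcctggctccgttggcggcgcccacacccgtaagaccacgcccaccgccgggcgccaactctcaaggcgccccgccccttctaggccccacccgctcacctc
Rab27a, first start: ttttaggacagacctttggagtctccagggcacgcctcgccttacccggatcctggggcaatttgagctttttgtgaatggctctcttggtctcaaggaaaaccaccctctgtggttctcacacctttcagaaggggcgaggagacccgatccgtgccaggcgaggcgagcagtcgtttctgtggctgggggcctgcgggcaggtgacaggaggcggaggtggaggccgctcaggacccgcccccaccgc
Rab27a, second start: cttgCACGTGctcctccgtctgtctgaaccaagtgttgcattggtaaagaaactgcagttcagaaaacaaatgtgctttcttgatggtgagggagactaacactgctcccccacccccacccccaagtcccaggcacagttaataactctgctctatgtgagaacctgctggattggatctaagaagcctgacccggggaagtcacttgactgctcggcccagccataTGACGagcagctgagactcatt

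Windows from 250 bases before to 50 bases after a start were present for 77 of the 94 genes, 94 windows in all, and each motif was searched on both strands. The short core TGACG was in 35 of the 94 windows (37.2%) and in 20.8% of all 32851 windows in the RefSeq table. Among genes that rose it was in 1 of 7 windows, among genes that fell in 7 of 24, and among tested genes that did not pass in 24 of 50. The whole element TGACGTCA, which contains the short core, was in 3 windows, those of Rab5a, Stxbp3 and Rab25, against 1.79% of all windows. Rab5a and Stxbp3 did not pass, and Rab25 was not tested. The E-box CACGTG was in 9 of the 94 windows and 7.15% of all windows. Its matches lay at Rab20 and Vamp4, which rose, at Rab23, Rab27a and Stxbp2, which fell, and at Rab5a, Rab21, Rab24 and Stx6, which did not pass. The AP-1 motif TGANTCA was in 4 of the 94 windows (7.81% of all). Those were windows of Rab15, which did not pass, and of Rab34, Rab39b and Vamp9, which were not tested. The core of the interferon-stimulated response element was in 2 (3.44% of all), at Rab19 and Vamp1, which did not pass. A match describes letters in a window and does not show that a factor bound there.

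The deposited counts totalled 42091346 to 56238941 reads per library. All 10 neutrophil markers checked were present, with summed levels of 79359 to 84503 CPM (counts scaled to library size) in vehicle and 72484 to 88023 CPM with PGE2, and 5 of them fell. Markers of other cells were also present. B cell markers summed to 383 to 513 CPM in vehicle and 595 to 855 CPM with PGE2, and 4 of 6 rose. Erythroid markers summed to 4418 to 20090 CPM and 15637 to 51432 CPM, and none of the 7 tested passed. Monocyte and macrophage markers summed to 1156 to 1587 CPM and 816 to 1230 CPM, with 2 of 8 lower. Eosinophil markers summed to 116 to 228 CPM and 58.03 to 91.1 CPM, with 3 of 5 lower. Megakaryocyte and platelet markers summed to 98.6 to 125 CPM and 72.6 to 94.3 CPM, with 1 of 6 lower. T and NK cell markers (51.8 to 111 and 52.3 to 130 CPM), basophil and mast cell markers (74.7 to 182 and 77.8 to 133 CPM) and dendritic cell markers (10.4 to 22.1 and 11.9 to 22.4 CPM) had no member past the test. No marker of these lists was at 0 in all 6 libraries, and their part in the results below was not tested. In such bulk libraries, fewer cells of a type and less RNA per cell cannot be told apart.

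With PGE2, the genes of regulated granule release did not move one way. Rab27a, Rab3d, Rab37, Unc13d, Stxbp2 and Snap23 fell, while the syntaxin gene Stx11, the vesicle SNARE gene Vamp2 and the large Rab gene Rab44 rose. Outside granule release the largest rises were those of Rab20, 3.08-fold, and Vamp4, 1.81-fold. Rab1a, Rab2a, Rab4b and Rab10 did not pass the test. Of the 94 genes, 79 had at least 10 counts in at least 3 libraries and were tested. In edgeR's quasi-likelihood test with Benjamini-Hochberg adjustment over all 15947 genes tested, 8 were higher and 19 lower, which is 34.2% of those tested. One of the 19, Stx19, was tested only because of its vehicle counts, as described with its values. Over all genes tested 24.4% passed, 10.1% higher and 14.3% lower. Of the 12716 protein-coding genes tested, 26.8% passed. The tested members' median log2 fold change was -0.03, and that of all tested genes was 0.04. At the unadjusted 0.05 level, 11 members were higher and 23 lower. The share of all tested genes at that level was not computed, so these counts have no background.

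Changes were mostly small. Of the 27 genes that passed, 21 changed by less than 2-fold, and 1 rose and 5 fell by more. Over all tested genes 6.31% passed and changed at least 2-fold. All 27 had groups that did not overlap, meaning that every PGE2 library lay on the same side of every vehicle library. The same held for 39 of the 79 tested members (49.4%), against 42.3% of all tested genes. With library totals in place of TMM scaling, 11 members were higher and 14 lower, which put the higher share of calls at 44.0% in place of 29.6%. On the authors' TPM with limma, 4 were higher and 20 lower, a higher share of 16.7%. Without PGE2 replicate 2, or without vehicle replicate 2, 5 were higher. The plot of called members shows the changes in order.

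**Figure D1:**
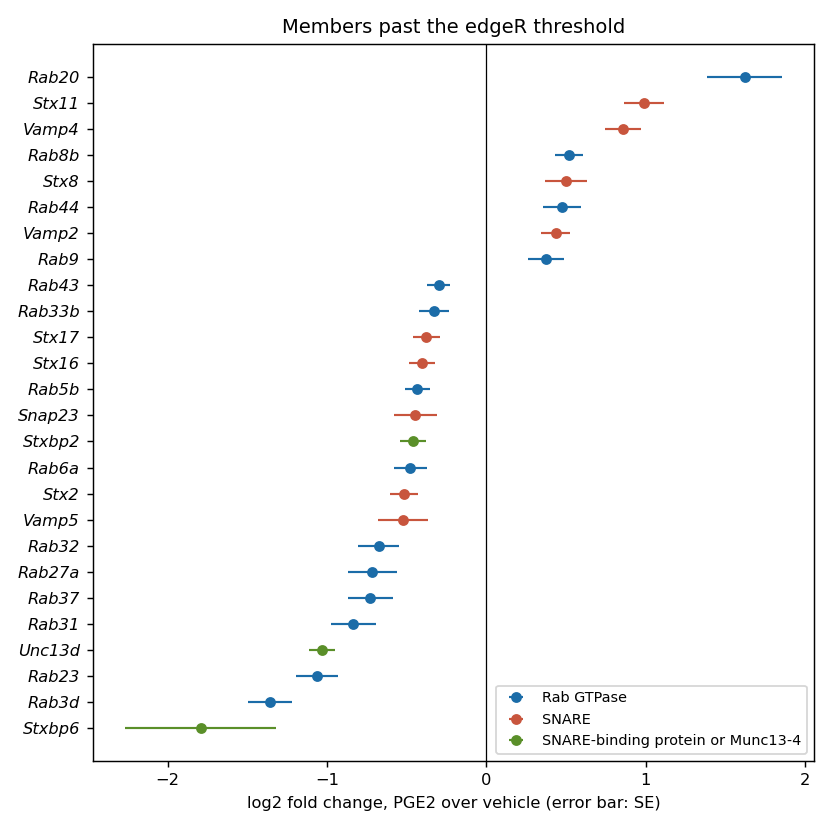
Log2 fold change (PGE2 over vehicle, x axis) of 26 of the 27 members that passed the edgeR test, one gene per row, with its standard error as a bar and colour for the gene family. Changes run from -1.79 for Stxbp6 to 1.62 for Rab20; Stx19, with 0 counts in all PGE2 libraries, is not drawn.

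Rabs of secretory granules come first. RAB27A sits on granules and links them to the cell cortex through its effectors. Rab27a (chromosome 9, 73044810 to 73097623, mm10) was at 302, 257 and 244 CPM in vehicle replicates 1 to 3 and 200.5, 154 and 134 CPM in PGE2 replicates 1 to 3. All PGE2 libraries lay below the lowest vehicle library, and the gene fell by 0.72 ± 0.15 on the log2 scale (SE, edgeR adjusted p = 0.0119). Its close relative Rab27b, known from platelets and mast cells, was at 2.03 ± 0.531 CPM in vehicle and 2.09 ± 0.134 CPM with PGE2 (SD, n = 3 per group) and did not pass (edgeR adjusted p = 0.933). Rab3d, the RAB3 member of zymogen and other secretory granules (chromosome 9, 21907491 to 21918199), was at 267, 249 and 243 CPM in vehicle and 121, 88.4 and 86.8 CPM with PGE2. The highest PGE2 library was below 0.5 of the lowest vehicle library, and Rab3d fell by 1.36 ± 0.14 (edgeR adjusted p = 0.00055).

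Rab37, which encodes a granule Rab first described in mast cells (chromosome 11, 115091331 to 115162773), had a log2 fold change of -0.73 ± 0.14, a fall (edgeR adjusted p = 0.00724). Its levels were 21.7, 22.9 and 21.6 CPM in vehicle and 15.8, 12.9 and 11.2 CPM with PGE2, with no overlap. Rab37 shares 19159 bases with Cd300lf on the other strand, and Cd300lf averaged 395 CPM in vehicle and 369 CPM with PGE2. No source used here says if counting was strand-specific, so reads of the 2 genes may be mixed. Rab44, which encodes a large Rab with calcium-binding EF hands (chromosome 17, 29114128 to 29148980), went the other way. It was at 859, 744 and 677 CPM in vehicle and 1096, 1129 and 945 CPM with PGE2, and rose by 0.48 ± 0.12 (edgeR adjusted p = 0.02). That p was 0.0701 when PGE2 replicate 2 was left out, and 0.0796 or 0.0707 when vehicle replicate 2 or 3 was (all alternatives, 0.00158 to 0.0823). Rab3a, the synaptic vesicle member, was at 3.97 ± 1.49 and 4.52 ± 1.24 CPM in vehicle and PGE2 and did not pass. Rab3b, Rab3c and Rab26 had too few reads to test. Of the 9 granule Rabs, 6 were tested, 1 rose, 3 fell and 2 did not pass, with a median log2 fold change of -0.34. The share that passed was 66.7% of those tested, beside 24.4% of all genes tested.

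Munc18 genes, other syntaxin-binding protein genes and Unc13d form the next group, which includes an inhibitor of SNARE assembly. In it 3 genes fell, 4 did not pass and 1 was not tested. Munc13-4 primes granules at the plasma membrane. Unc13d (chromosome 11, 116062095 to 116078495) was at 126, 130.3 and 140.5 CPM in vehicle and 65.6, 63.7 and 64.8 CPM with PGE2. The PGE2 libraries were close to one another and all were far below the vehicle libraries, with a fall of 1.03 ± 0.08 on the log2 scale (edgeR adjusted p = 0.000255). Munc18-2, the partner of syntaxin 11, is encoded by Stxbp2 (chromosome 8, 3630960 to 3643998). Stxbp2 was at 443, 429 and 409 CPM in vehicle and 314, 328 and 291 CPM with PGE2, again without overlap, and fell by 0.46 ± 0.08 (edgeR adjusted p = 0.00512). Stxbp3, which encodes Munc18-3, the partner of syntaxin 4, was at 68.9, 60.7 and 60.4 CPM in vehicle and 72.5, 65.5 and 54.96 CPM with PGE2. The groups overlapped and its log2 fold change was 0.02 ± 0.12 (edgeR adjusted p = 0.919).

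Stxbp5, which encodes tomosyn, an inhibitor of SNARE assembly, was at 136, 108 and 86.3 CPM in vehicle and 151, 143 and 118 CPM with PGE2. Its groups overlapped (edgeR adjusted p = 0.212), but within each replicate number the PGE2 library was the higher one. With the replicate number as a block the adjusted p was 0.013, and without vehicle replicate 1 it was 0.0496 (0.013 to 0.551 over the alternatives). Stxbp6, which encodes amisyn, a SNARE-binding protein, overlaps the gene Gm38487 on the same strand and was low, at 2.18, 1.02 and 1.22 CPM in vehicle and 0.237, 0.555 and 0.478 CPM with PGE2. It fell by 1.79 ± 0.47 (edgeR adjusted p = 0.0269), and leaving out PGE2 replicate 1 or 3 gave 0.0549 or 0.0589, and leaving out vehicle replicate 1 or 3 gave 0.113 or 0.0511 (all alternatives, 0.00458 to 0.113). Stxbp4, which encodes a binding partner of syntaxin 4, was at 1.83 ± 0.331 and 2.24 ± 0.363 CPM in vehicle and PGE2 and did not pass. Of the 8 genes of this group, 7 were tested, 0 rose and 3 fell with edgeR, and 0 were higher at an unadjusted p under 0.05 or with DESeq2. With edgeR 42.9% of those tested passed, beside 24.4% of all genes tested.

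Among the SNAREs of the plasma membrane, Stx11 had the largest rise. Syntaxin 11 is a syntaxin of immune cells that lacks a membrane-spanning segment. Stx11 (chromosome 10, 12938217 to 12964498) was at 406, 428 and 365 CPM in vehicle and 721, 937 and 721 CPM with PGE2. The lowest PGE2 library was above the highest vehicle library by more than the whole spread of the vehicle group, and Stx11 rose by 0.99 ± 0.13 on the log2 scale (edgeR adjusted p = 0.00125). Stx2, which encodes a syntaxin used in the last step of cell division and in secretion (chromosome 5, 128984557 to 129008600), fell by 0.52 ± 0.09 (edgeR adjusted p = 0.00472), with 43.1, 46.5 and 44.1 CPM in vehicle and 33.6, 30.4 and 29.5 CPM with PGE2. Stx4a, which encodes syntaxin 4, was at 74.5, 82.4 and 78.9 CPM in vehicle and 75.5, 77.4 and 73.3 CPM with PGE2, and its log2 fold change was -0.06 ± 0.08 (edgeR adjusted p = 0.638). Stx3, a syntaxin of granule release in mast cells and neutrophils, was at 10.2, 9.297 and 7.02 CPM in vehicle and 12.3, 12.1 and 8.47 CPM with PGE2, with overlapping groups (edgeR adjusted p = 0.305).

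Snap23, which encodes the SNAP protein that stands in for neuronal SNAP-25 in most cells (chromosome 2, 120567655 to 120601255), was at 324, 395 and 479.8 CPM in vehicle and 289, 301 and 291 CPM with PGE2. The PGE2 libraries lay close together below a widely spread vehicle group, and Snap23 fell by 0.44 ± 0.13 on the log2 scale (edgeR adjusted p = 0.0455). The p was 0.0963, 0.096, 0.114, 0.109 and 0.118 without PGE2 replicates 1, 2 and 3 and vehicle replicates 2 and 3, and 0.00798 to 0.118 over the alternatives. Without vehicle replicate 3 its log2 fold change was -0.29. Snap25 itself had 0 reads in all 6 libraries. Stx19, a syntaxin of epithelia, had 14, 20 and 12 reads in the vehicle libraries and 0 in each PGE2 library. Against a floor of 3 counts over the PGE2 group, the pooled vehicle level was 18.2-fold higher. Leaving out 1 vehicle library put this at 14.5-fold (replicate 2) to 21.6-fold (replicate 3). The floor covers counting error and not variation between libraries. Stx19 met the filter of 10 counts in 3 libraries only through the vehicle group, so its call was partly set by the filter and is given as a description. All 8047 bases of Stx19 lie within Arl13b on the other strand, which averaged 5.21 CPM in vehicle and 6.18 CPM with PGE2. Stx1a, the neuronal syntaxin gene, was at 0.986 ± 0.646 and 0.932 ± 0.587 CPM and did not pass. Of the 9 genes of this group, 7 were tested, 1 rose and 3 fell, Stx19 among them. With Stx19 counted, 57.1% of those tested passed, beside 24.4% of all genes tested.

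Vesicle SNAREs rose, fell or did not pass, by gene. VAMP4 works in traffic between endosomes and the trans-Golgi network. Vamp4 (chromosome 1, 162570515 to 162599082) was at 51.7, 54.8 and 47.99 CPM in vehicle and 80.8, 104 and 95.1 CPM with PGE2, with every PGE2 library well above the vehicle libraries, and rose by 0.86 ± 0.11 (edgeR adjusted p = 0.00134). VAMP2 takes part in the release of neutrophil granules. Vamp2 (chromosome 11, 69088528 to 69092381) was at 101, 99.2 and 99.99 CPM in vehicle and 140.3, 145 and 121 CPM with PGE2, and rose by 0.44 ± 0.09 (edgeR adjusted p = 0.00935). On the authors' TPM with limma the Vamp2 adjusted p was 0.0579 (0.00031 to 0.0579 over the alternatives). Vamp8, which encodes the VAMP of endosome fusion and granule release, was at 87.8, 117 and 119 CPM in vehicle and 108, 122 and 118 CPM with PGE2. Its groups overlapped, with a log2 fold change of 0.10 ± 0.13 (edgeR adjusted p = 0.613). Vamp3, the VAMP of recycling endosomes, was at 95.3 ± 8.96 and 97.4 ± 7.71 CPM and Vamp1 at 30.04 ± 2.104 and 27.1 ± 1.28 CPM (vehicle first), and both missed the threshold.

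Vamp5, first described in muscle, fell by 0.52 ± 0.16 on the log2 scale (edgeR adjusted p = 0.0446), from 19.9, 22.1 and 24.2 CPM in vehicle to 15.9, 17.9 and 12.2 CPM with PGE2. The Vamp5 p was 0.0705 and 0.0964 without PGE2 replicates 1 and 3, and 0.0558, 0.111 and 0.13 without vehicle replicates 1, 2 and 3 (0.0108 to 0.13 over the alternatives). Vamp9 had 0 reads in all 6 libraries. Of the 7 VAMP genes, 6 were tested, 2 rose and 1 fell, or 50%, beside 24.4% of all genes tested. Taking the 16 measured genes of granule release as 1 list, 15 were tested, 3 rose, 6 fell and 6 did not pass, and the median log2 fold change was 0.02. Over all genes tested 10.1% rose and 14.3% fell. On TPM with limma, 1 rose and 6 fell, Rab44 and Vamp2 no longer passing (adjusted p = 0.0823 and 0.0579). The plot of granule release genes gives each library.

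**Figure D2:**
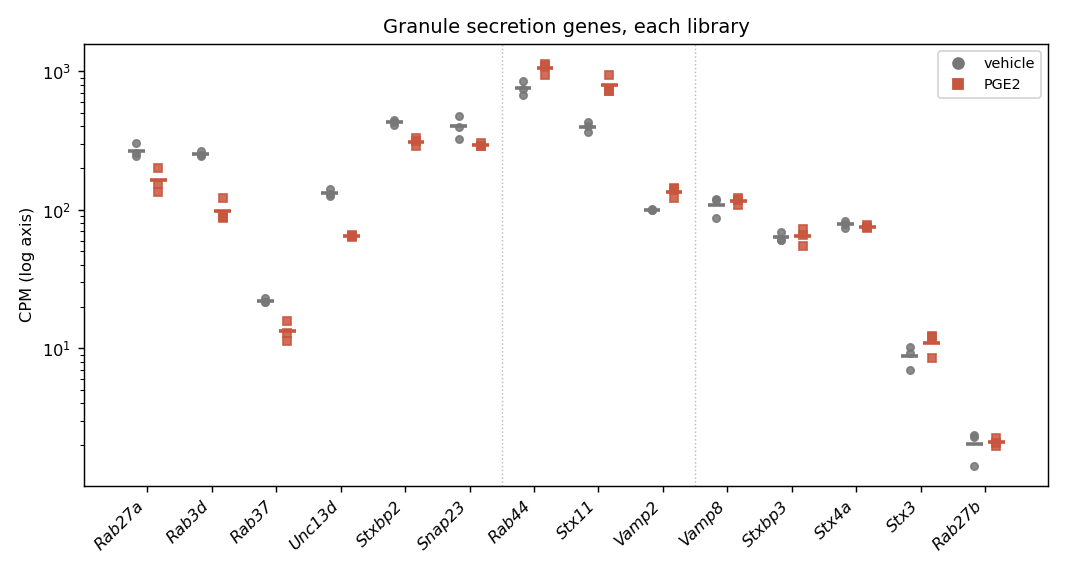
CPM (log axis) of 14 of the 15 tested genes of granule release in each library, vehicle as grey circles and PGE2 as red squares, with the group mean as a line; dotted lines part genes that fell, rose and did not pass. Unc13d sits between 63.7 and 65.6 CPM with PGE2, below all vehicle libraries, and Stx11 between 721 and 937 CPM, above them.

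The Rabs of early and recycling endosomes held the largest rise. RAB20 is a Rab of phagosomes and early endosomes that interferon and hypoxia are known to induce. Rab20 (chromosome 8, 11453390 to 11478640) was at 13.1, 13.1 and 18.7 CPM in vehicle and 32.4, 47.5 and 58.6 CPM with PGE2. Every PGE2 library lay above the vehicle libraries, though the PGE2 libraries were spread, and Rab20 rose by 1.62 ± 0.23 on the log2 scale (edgeR adjusted p = 0.00206). A long noncoding RNA gene on the other strand, E230013L22Rik, overlaps 712 bases of Rab20 and averaged 0.779 CPM in vehicle and 2.30 CPM with PGE2. Rab31, which encodes a Rab of the trans-Golgi network and endosomes (chromosome 17, 65651726 to 65772752), fell by 0.83 ± 0.14 (edgeR adjusted p = 0.00429). Rab31 was at 178, 196 and 194 CPM in vehicle and 121, 115 and 82.4 CPM with PGE2.

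RAB5 proteins mark early endosomes and drive their fusion. Rab5b (chromosome 10, 128677170 to 128696284) was at 298, 305 and 293 CPM in vehicle and 237, 219 and 207 CPM with PGE2 and fell by 0.43 ± 0.08 (edgeR adjusted p = 0.0065). Rab5b shares 397 bases with Pmel on the other strand, which averaged 0.773 CPM in vehicle and 0.302 CPM with PGE2. The paralogs of Rab5b did not pass. Rab5c was at 203, 235 and 217 CPM in vehicle and 191, 191 and 184 CPM with PGE2 (edgeR adjusted p = 0.103), and on TPM with limma its adjusted p was 0.0427 (0.0427 to 0.334 over the alternatives). Rab5a was at 76.3, 85.7 and 80.0 CPM in vehicle and 88.4, 101 and 86.6 CPM with PGE2, so that all its PGE2 libraries lay above the vehicle libraries (edgeR adjusted p = 0.182). With library totals in place of TMM scaling the Rab5a p was 0.0384 (0.0384 to 0.613 over the alternatives). The 3 paralogs thus had log2 fold changes of 0.19 ± 0.09 for Rab5a, -0.43 ± 0.08 for Rab5b and -0.21 ± 0.08 for Rab5c. The difference between paralogs was not tested.

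The recycling Rab genes Rab11a and Rab11b had log2 fold changes of 0.21 ± 0.10 and -0.12 ± 0.08, and Rab4b was at 81.4 ± 5.53 and 81.3 ± 8.59 CPM in vehicle and PGE2. Rab14, Rab21 and Rab35, of endosome sorting and recycling, had log2 fold changes of -0.23 ± 0.09, -0.18 ± 0.08 and -0.21 ± 0.08. In all 3 the PGE2 libraries lay below the vehicle libraries, and none passed (edgeR adjusted p = 0.11, 0.137 and 0.107). With the replicate number as a block Rab35 passed, with an edgeR adjusted p of 0.0456 (0.0438 to 0.309 over the alternatives). Rab11a had an edgeR adjusted p of 0.174, and 0.0364 with library totals in place of TMM scaling (0.0364 to 0.477 over the alternatives). Rab4a, at 0.677, 1.42 and 1.28 CPM in vehicle and 1.17, 4.02 and 2.03 CPM with PGE2, had an edgeR adjusted p of 0.142, 0.028 with the block and 0.0481 without PGE2 replicate 1 (0.028 to 0.462 over the alternatives). Rab22a and the scarce Rab15 did not pass, and Rab17 and Rab25, known from epithelia, had too few reads to test. Of the 16 endosome Rabs, 14 were tested, 1 rose and 2 fell, or 21.4%, beside 24.4% of all genes tested.

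Among Rabs of late endosomes and lysosomes, Rab32 fell. RAB32 directs cargo to lysosome-related organelles and restricts intracellular bacteria. Rab32 (chromosome 10, 10545039 to 10558207) was at 202, 263 and 238 CPM in vehicle and 161, 152 and 127 CPM with PGE2, without overlap, and fell by 0.68 ± 0.13 on the log2 scale (edgeR adjusted p = 0.00677). Rab7, which encodes the Rab of late endosome and lysosome fusion, was at 724, 805 and 742 CPM in vehicle and 834, 945 and 856 CPM with PGE2. Its groups did not overlap, with a log2 fold change of 0.21 ± 0.09 (edgeR adjusted p = 0.121). With library totals in place of TMM scaling that p was 0.0223 (0.0223 to 0.467 over the alternatives). Rab9, of traffic from late endosomes to the Golgi, was at 22.5, 22.8 and 18.8 CPM in vehicle and 26.3, 29.99 and 26.8 CPM with PGE2, and rose by 0.37 ± 0.11 (edgeR adjusted p = 0.0468). Its p was above 0.05 without each library in turn, from 0.0512 (PGE2 replicate 1 left out) to 0.138 (vehicle replicate 3 left out), and lay at 0.0159 to 0.211 in all alternatives. Rab24, Rab12, Rab29, Rab7b, Rab38 and Rab36 did not pass, with log2 fold changes from -0.52 (Rab36) to 0.24 (Rab7b). Rab34 and Rab9b had too few reads to test. Of the 11 genes of this group, 9 were tested, 1 rose and 1 fell, or 22.2%, beside 24.4% of all genes tested.

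Rabs of the endoplasmic reticulum, the Golgi and the path to the surface numbered 18, of which 17 were tested, 1 rose and 3 fell. This was 23.5% of those tested, beside 24.4% of all genes tested. RAB8 proteins carry vesicles from the Golgi and recycling endosomes to the plasma membrane. Rab8b (chromosome 9, 66843609 to 66919705) was at 465, 473 and 495 CPM in vehicle and 650.4, 749.7 and 656 CPM with PGE2, and rose by 0.52 ± 0.09 on the log2 scale (edgeR adjusted p = 0.00415). Its paralog Rab8a was at 224, 242 and 240.5 CPM in vehicle and 207, 214 and 209 CPM with PGE2, with all PGE2 libraries below the vehicle libraries and a log2 fold change of -0.17 ± 0.07 (edgeR adjusted p = 0.147). RAB6 acts in traffic within and out of the Golgi. Rab6a (chromosome 7, 100607575 to 100641268) was at 446, 449 and 406 CPM in vehicle and 344, 318 and 273 CPM with PGE2, and fell by 0.48 ± 0.10 (edgeR adjusted p = 0.012, and 0.053 without vehicle replicate 2, with 0.000239 to 0.053 over the alternatives). It shares 727 bases with Mrpl48 on the other strand, which averaged 26.1 and 27.02 CPM in vehicle and PGE2.

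Both other falls of the group were small. Rab43, of the Golgi and of phagosomes, fell by 0.30 ± 0.07 (edgeR adjusted p = 0.0207), from 132, 139 and 137 CPM to 107, 113 and 112 CPM. Dropping PGE2 replicate 1 or 2 gave a p of 0.0516 or 0.0525, and dropping vehicle replicate 2 or 3 gave 0.0897 or 0.0656 (all alternatives, 0.000575 to 0.0928). Rab33b, which binds the autophagy protein ATG16L1, fell by 0.33 ± 0.09 (edgeR adjusted p = 0.0376), from 55.9, 64.1 and 52.6 CPM to 45.2, 45.96 and 46.2 CPM. Leaving out PGE2 replicates 1, 2 and 3 and vehicle replicates 1 and 2 gave 0.0813, 0.0937, 0.0854, 0.068 and 0.146 (0.0109 to 0.146 over the alternatives). The early secretory Rabs Rab1a, Rab1b, Rab2a, Rab10 and Rab18 were at 159.8 ± 8.99, 145 ± 12.8, 158 ± 5.52, 72.2 ± 5.67 and 39.6 ± 2.55 CPM in vehicle. Their log2 fold changes lay between -0.15 (Rab1b) and 0.04 (Rab18), and none passed. Rab2b, Rab6b, Rab13, Rab19, Rab30, Rab33a and Rab39 were tested at low levels and did not pass.

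SNAREs of inner membranes rose, fell or did not pass, by gene. Stx16, of endosome to Golgi traffic (chromosome 2, 174076260 to 174099771), was at 88.4, 79.8 and 84.9 CPM in vehicle and 65.3, 64.99 and 60.95 CPM with PGE2 and fell by 0.40 ± 0.08 on the log2 scale (edgeR adjusted p = 0.00859). Stx17, the syntaxin that fuses autophagosomes with lysosomes (chromosome 4, 48124906 to 48186507), was at 83.4, 76.3 and 76.7 CPM in vehicle and 64.1, 59.9 and 58.4 CPM with PGE2 and fell by 0.38 ± 0.08 (edgeR adjusted p = 0.0129, and 0.0635 with library totals in place of TMM scaling, with 0.000657 to 0.0635 over the alternatives). Stx8, a late endosome SNARE, was at 10.7, 9.92 and 12.4 CPM in vehicle and 14.7, 14.96 and 17.03 CPM with PGE2 and rose by 0.50 ± 0.13 (edgeR adjusted p = 0.0256). Its p was 0.0529, 0.0819, 0.073 and 0.0957 without PGE2 replicates 2 and 3 and vehicle replicates 1 and 2 (0.00567 to 0.184 over the alternatives).

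Stx7, which pairs with Stx8 and Vamp8 products in late endosome fusion, was at 143, 141 and 142 CPM in vehicle and 129, 111 and 93.7 CPM with PGE2. Its vehicle libraries were nearly equal and all PGE2 libraries lay below them, with a log2 fold change of -0.35 ± 0.12 (edgeR adjusted p = 0.0608). That p was 0.0176 with the replicate block, 0.0125 without PGE2 replicate 1 and 0.0261 with DESeq2 (0.0125 to 0.153 over the alternatives). Stx5a, the syntaxin of traffic into the Golgi, was at 87.9 ± 5.77 CPM in vehicle and 94.2 ± 6.07 CPM with PGE2. Stx6, Stx12, Stx18, Snap29 and Snap47 had log2 fold changes from -0.04 (Stx6) to 0.22 (Snap47), and neither they nor Stx5a passed. All 10 genes of this group were tested, 1 rose and 2 fell, or 30%, beside 24.4% of all genes tested.

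Of the 5 remaining Rabs, Rab23 fell. RAB23 is known as a negative regulator of Hedgehog signalling and has a role at cilia. Rab23 (chromosome 1, 33719896 to 33742564) was at 21.96, 19.6 and 20.1 CPM in vehicle and 11.3, 8.61 and 9.62 CPM with PGE2, every PGE2 library lying well below the vehicle libraries, and fell by 1.06 ± 0.13 on the log2 scale (edgeR adjusted p = 0.00116). Rab28 was at 26.2 ± 2.08 and 27.6 ± 2.06 CPM and Rab40c, which carries a SOCS box, at 16.7 ± 0.912 and 19.9 ± 1.23 CPM (vehicle first). Both missed the threshold (edgeR adjusted p = 0.662 and 0.116). Rab40b and Rab42 had too few reads to test.

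Levels were compared between genes on the authors' TPM, which scales for transcript length. Summed over the 94 genes, TPM came to 5538 to 5927 in vehicle and 5009 to 5481 with PGE2, whereas the genes' share of counts was 0.813 to 0.840% in vehicle and 0.867 to 0.901% with PGE2. The groups did not overlap in either measure, and the direction differed. Hemoglobin genes took 0.413 to 1.86% of counts in vehicle and 1.57 to 4.87% with PGE2, and their part in this was not tested. Rab7 was the most abundant member, with 613 ± 20.6 TPM in vehicle and 658 ± 21.1 TPM with PGE2 (SD, n = 3). It was followed by Rab44 (381 ± 71.3 and 488 ± 41.4 TPM) and Stx11 (235 ± 21.1 and 437 ± 38.6 TPM). Next came Vamp8, Stxbp2 and Snap23, whose means over all 6 libraries were 239, 229.6 and 223 TPM. The 10 most abundant genes made up 52.5% of the mean TPM of the 94. Of the 27 tested genes with a mean of at least 100 CPM, 4 were higher and 9 lower. Among 31 between 10 and 100 CPM, 4 were higher and 8 lower, and among 21 below 10 CPM, 2 were lower and the others did not pass. The median standard error of the log2 fold change was 0.09, 0.11 and 0.32 in these bands, from the highest level to the lowest. Shares of all tested genes in these bands were not computed, so the band counts have no background.

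**Figure D3:**
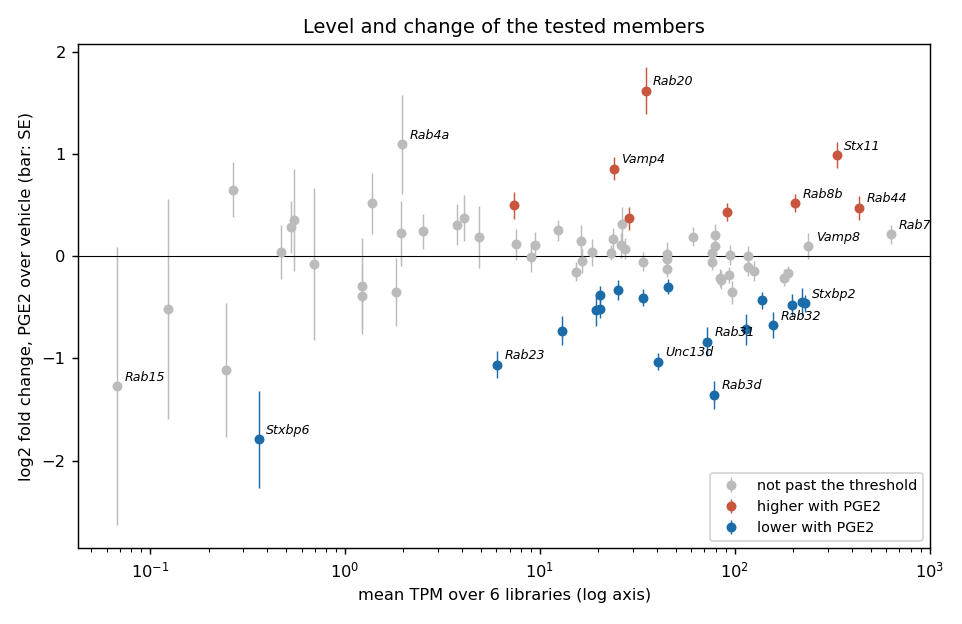
Mean TPM over 6 libraries (x, log axis) against log2 fold change with its standard error (y) for 78 of the 79 tested members, coloured by call. Rab7, the most abundant gene, lies at 0.21 and did not pass, Stx11 and Rab44 lie above 0, and the standard errors are widest below 1 TPM; Stx19 is not drawn.

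To set close paralogs side by side, each gene's share of its paralog group was computed from TPM in each library, with groups chosen with these values in view and no test. Rab8b made up 46.2 ± 0.826% of RAB8 mRNA in vehicle and 57.9 ± 1.57% with PGE2 (SD, n = 3). By TPM the more abundant paralog was thus Rab8a in vehicle and Rab8b with PGE2. In CPM, which is not scaled for transcript length, Rab8b was the higher one in both groups. Stx11 made up 67.6 ± 0.569% of the plasma membrane syntaxins in vehicle and 82.7 ± 1.15% with PGE2. Stx4a went from 23.96 ± 0.252 to 13.3 ± 0.693% and Stx2 from 7.08 ± 0.369 to 3.08 ± 0.625%. Within RAB5, Rab5a went from 14.2 ± 0.171 to 18.9 ± 1.303% and Rab5b from 38.8 ± 1.39 to 33.6 ± 1.42%, while Rab5c was at 47.0 ± 1.22 and 47.5 ± 0.782%. Stxbp2 made up 85.5 ± 1.35% of the Munc18 genes in vehicle and 80.01 ± 2.03% with PGE2. In several other groups 1 paralog made up nearly all the mRNA in both groups of libraries. Rab7 was 99.6 ± 0.0511 and 99.6 ± 0.0904% of RAB7, Rab33b 98.8 ± 0.439 and 99.3 ± 0.531% of RAB33, and Rab2a 97.05 ± 0.0973 and 96.1 ± 1.32% of RAB2, and Rab9b had no reads beside Rab9. Rab27a was 99.7 ± 0.118 and 99.4 ± 0.101% of RAB27, Rab6a 99.1 ± 0.392 and 98.97 ± 0.319% of RAB6, and Rab4b 98.9 ± 0.339 and 97.7 ± 1.25% of RAB4. Rab3d was 96.02 ± 1.58% of RAB3 in vehicle and 88.99 ± 3.81% with PGE2. Summed RAB3 mRNA was 120.1 ± 13.1 TPM in vehicle and 47.1 ± 10.9 TPM with PGE2.

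**Figure D4:**
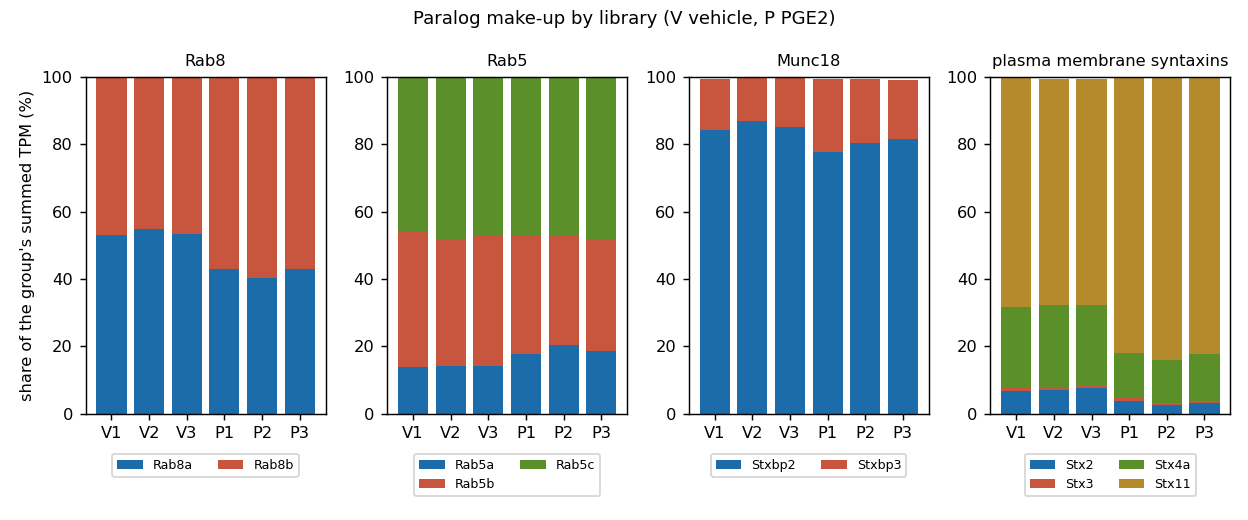
Share of the summed TPM (%) held by each paralog in each library (V1 to V3 vehicle, P1 to P3 PGE2), for RAB8, RAB5, Munc18 and plasma membrane syntaxin genes of at least 1% in 1 group. The Rab8b and Stx11 shares are larger in all 3 PGE2 libraries than in any vehicle library.

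Other genes of the same pathway, listed by function with earlier results of these data known, fell more often than they rose. Of 166 genes 145 were tested, 6 rose and 39 fell, or 31.0%, beside 24.4% of all genes tested, and their median log2 fold change was -0.16. The list medians were -0.19 (Rab cycle), -0.25 (effectors and tethers), 0.13 (other SNAREs) and 0.12 (SNARE recycling and related genes). With the replicate block 18 of the other pathway genes rose and 53 fell. Genes for the Rab cycle (prenylation, GDI, exchange factors and GTPase-activating proteins) had 3 rises and 22 falls among 63 tested. Tbc1d2, a RAB7 GTPase-activating protein gene, was at 60.6, 52.6 and 55.4 CPM in vehicle and 28.7, 25.3 and 23.8 CPM with PGE2, a fall of 1.12 ± 0.10 (edgeR adjusted p = 0.000455). Dennd1b, which encodes an exchange factor for RAB35, fell by 0.82 ± 0.08. Rab effectors and tethers had 3 rises and 13 falls among 51 tested. Rab11fip4, which encodes a RAB11 effector, was at 142, 154 and 158 CPM in vehicle and 50.8, 43.6 and 43.6 CPM with PGE2, and fell by 1.72 ± 0.10 (edgeR adjusted p = 9.58e-05), beside 1.36 ± 0.14 for Rab3d, the member Rab with the lowest log2 fold change. Mical1 fell by 0.91 ± 0.09.

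Sytl1 and Sytl3, which encode synaptotagmin-like effectors of RAB27A and were picked after their values were seen, fell by 0.92 ± 0.13 and 1.52 ± 0.15 on the log2 scale. They belong to the 51 tested effectors and tethers, of which 3 rose, 13 fell and 35 did not pass. That list also named other synaptotagmin-like genes, whose values are not given here. The pair therefore does not describe RAB27A effectors as a set. Sytl1 was at 11.02, 10.6 and 12.3 CPM in vehicle and 6.03, 5.87 and 5.98 CPM with PGE2, with no overlap. Of 12 other SNARE genes 2 fell, or 16.7%, beside 24.4% of all genes tested, and the others did not pass. These were Sec22c, by 0.69 ± 0.17 (edgeR adjusted p = 0.0189), and Vti1a, by 0.47 ± 0.13 (edgeR adjusted p = 0.0339). For Sec22c the p was 0.0578 and 0.0654 without PGE2 replicates 2 and 3 (0.00151 to 0.0654 over the alternatives). For Vti1a it was 0.106 and 0.102 without PGE2 replicates 2 and 3, and 0.116, 0.0604 and 0.0572 without vehicle replicates 1, 2 and 3 (0.00426 to 0.116 over the alternatives). Of 19 tested genes for SNARE recycling, other Munc18-like proteins, synaptotagmins and complexins, 2 fell, or 10.5%, and the others did not pass. These were Baiap3, a Munc13 family gene, by 1.05 ± 0.15, and Vipas39, whose product binds VPS33B, by 0.57 ± 0.12. Nsf, the ATPase that takes SNARE complexes apart, was at 26.98 ± 0.742 and 26.5 ± 2.18 CPM in vehicle and PGE2 and did not pass (edgeR adjusted p = 0.89).

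The genes left untested included Rab17, Rab25, Rab39b, Rab26, Rab3b, Rab3c, Rab34, Rab9b, Rab40b, Rab42, Snap25, Snap91, Stxbp5l and Vamp9. Of all 15 untested genes, 6 had 0 reads in all libraries and 9 had some, with at most 0.118 CPM on average.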

How the data were processed

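Poly(A) RNA of 6 libraries was sequenced, 3 per group. The submitters' processing notes name Bowtie2, STAR, StringTie 2.1.3b, RSEM and DESeq2 and the build mm10. These notes give no roles, and no source used here ties a tool to a value or states strand use. The deposited table held estimated counts per gene, whole numbers whose totals differed between libraries although the table is named as normalized, and the authors' TPM per gene. Another 18 columns belonged to other libraries and were not used.

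Counts were scaled by TMM and tested with edgeR 4.0.16 (quasi-likelihood, R 4.3.3) over the 15947 genes with at least 10 counts in at least 3 libraries, with Benjamini-Hochberg adjusted p at 0.05. CPM are TMM-scaled, fold changes are PGE2 over vehicle, and errors of means are SD (n = 3). The biological coefficient of variation was 22.4%. The script was checked on simulated counts, in which 67 genes were set to change 1.5-fold, 67 2-fold and 66 4-fold. Of those with a value, the edgeR test found 26.9, 53.7 and 76.6%, and 6.36% of all its calls were false. A gene that did not pass may therefore still have changed. Alternatives used DESeq2 1.42.0, limma 3.58.1 on log2(TPM + 1), other scalings and filters, a replicate block and the removal of each library. Same-numbered libraries deviated together (r = 0.26, 0.17 and 0.19), so the replicate block takes the numbers to pair them. The main test had no block, so its p-values do not use this pairing. The pairing comes from these correlations, as no label says what a shared number stands for.

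Genes named by rule were up to 14 rises and 14 falls past the threshold, by size, the genes of granule release, the 2 most abundant members of each role and the 2 other pathway genes per list with the smallest adjusted p. Further members were named, after their values were seen, to account for the set. Values of 2 members are not reported here, though counts include them. The members and lists were chosen with earlier results of these data known. Standard errors of log2 fold changes come from the edgeR quasi-likelihood fit and include variation between libraries. The floor used for Stx19 covers counting error alone.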

Additional observations from a re-analysis of the deposited data

How the results depend on the processing

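Of the 8 members that rose, 4 (Rab20, Stx11, Vamp4 and Rab8b) kept their call in every alternative that gave a value. Of the 19 that fell, 12 did so, Stx19 among them. Stx19 had a value in only 8 alternatives, and its call was partly set by the filter, so its stability was not tested. No fold change that passed turned its direction. Leaving out 1 library gave 5 to 8 members higher, with 5 without PGE2 replicate 2 and without vehicle replicate 2, and 13 to 16 lower. Of the other pathway genes it gave 4 to 9 higher and 30 to 37 lower, and of all genes 1005 to 1541 higher (1063 without PGE2 replicate 2, 1005 without vehicle replicate 2) and 1627 to 2262 lower, with fewer samples. On TPM with limma, 4 members, 3 other pathway genes and 967 of all genes were higher, and the cause was not tested. Scaling moved the median log2 fold change of all genes from 0.04 to 0.13 with library totals and to -0.06 on TPM. With the replicate block, for libraries paired by number, 10 members were higher and 21 lower, all 27 calls were kept, and Rab35, Rab4a, Stx7 and Stxbp5 were added. The block put 18 other pathway genes and 2648 of all genes higher. Other pathway genes higher were 15 with library totals, 11 with DESeq2 and 12 with a minimum of 50 counts, against 6, and the cause was not tested. Stx19 had no value without any one vehicle library, on TPM, with DESeq2 or with the minimum of 50 counts. Among the 21 tested members below 10 CPM the median standard error was 0.32, against 0.11 and 0.09 in the higher bands, and the part of depth in this was not tested.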
